A study of Mus musculus with 20 samples.

Results

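Nucleolar ribosome biogenesis factors are the proteins that process pre-rRNA and assemble the ribosomal subunits, and their mRNAs were followed here in RNA immunoprecipitation sequencing (RIP-Seq) of the dioxygenases Tet1 and Tet2 in mouse embryonic stem cells (ESCs). The set was a list of 54 genes, of which 53 were among the 23284 genes of the files at any level, while Noc2l was not analysed here. Cebpz and Gnl2 gave the set its name because their ratio of immunoprecipitate (IP) to input in Tet1 and Tet2 was already known to be high, so their ratios are given as a description without a test. The other 51 genes were listed for their function, but with earlier results of these data known. The question was whether they share that high ratio. Counts over them are a description and not an independent test.

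The cells were wild-type mouse ESCs grown on gelatin with serum and LIF, in which a Flag, HA and Twin-Strep tag had been placed at the C-terminal end of the endogenous protein with the CRISPR-Cas9 nickase. The Tet1-KI line carried tagged Tet1, the Tet2-KI line carried tagged Tet2, and the Tet2ΔRBD-KI line carried tagged Tet2 without its RNA-binding domain (RBD). Lines came from picked clones and were cultured alike, so a difference between lines is also a difference between clones. RNA recovered with an anti-Flag antibody from cytoplasmic extract was paired with total RNA input of the same replicate number, in 2 pairs for Tet1, 4 for Tet2 and 4 for Tet2ΔRBD, 20 libraries in all. No IP from untagged cells was analysed here, so a ratio above input is relative to total RNA and not to the background of the antibody or the beads. The study reports at least biological duplicates for RIP-Seq, but nothing in the labels says which replicates were separate cultures. The p-values therefore measure only the spread between these libraries. That spread was estimated for each gene over all 20 libraries together. Standard errors (SE) and p-values in Tet1 thus also hold the spread of the Tet2 lines.

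Ribosome assembly starts in the nucleolus, where pre-rRNA is transcribed, cut, and modified by small nucleolar ribonucleoproteins (snoRNPs). Box C/D snoRNPs guide ribose methylation and box H/ACA snoRNPs guide pseudouridylation, while the small subunit (SSU) processome and the 60S assembly factors fold and trim the pre-ribosomes. Dividing stem cells make ribosomes at a high rate.

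The sequences below are shown because the members with high and low IP over input differed in the adenine content of their coding sequence, described further on. Each is the window of 30 bases, in reading frame, with the most A among those inside a single exon of the longest coding sequence of the gene (gencode vM1, mm9), and the capitals mark codons made of A and G alone, which encode lysine, arginine, glutamate or glycine. The first 4 belong to the members with the highest mean ratio in Tet2 and the last 4 to those with the lowest. The windows lie at chr17:79335165-79335194 (Cebpz, minus strand), chr4:124732497-124732526 (Gnl2, plus), chr7:71534432-71534461 (Mphosph10, minus), chr9:52968063-52968092 (Ddx10, minus), chr2:112102533-112102562 (Nop10, plus), chr8:109582289-109582318 (Nip7, plus), chr3:129532288-129532317 (Gar1, minus) and chrX:147422383-147422412 (Gnl3l, minus), each inside a coding exon and written 5′ to 3′ on the coding strand.
Cebpz: aatAAAAAAcaaAAAgcaacaGAAGGAAAA
Gnl2: AAAaacAGGaacAGGaacAAAAAGAAGacg
Mphosph10: GAAAAAgtaGAAAAAGAAGAGGAAAAAAGA
Ddx10: AAAAAAttaaccAAAgttgcaGAAgcaAAA
Nop10: AAAtattcaAGAcaccgaatcaccatcAAG
Nip7: gcagcaAAGtctacccaagactgccgaAAA
Gar1: tacttaGAAaacAAAGAGcaagtcGGGAAA
Gnl3l: AAGaatAAGAAAAAAttgcagAAGcgttca
The windows of Cebpz, Gnl2, Mphosph10 and Ddx10 held 22, 19, 21 and 18 adenines. Those of Nop10, Nip7, Gar1 and Gnl3l held 14, 12, 15 and 16. Across exon junctions Gnl3l has an in-frame window with 19, as many as Gnl2 and more than Ddx10, so these windows do not separate the members with high ratios from those with low ones.

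Libraries held between 21078995 and 37576638 expected counts, and the 10 ESC marker genes summed to 10100 to 19000 TPM against 10.8 to 63.6 TPM for 8 fibroblast markers and 11.1 to 175 TPM for 8 primitive endoderm markers. The names of the deposited tables place number 1 and number 2 of both Tet2 lines in sets of their own, and numbers 3 and 4 together with all Tet1 libraries in another set. Some pairs stood apart. Over the 53 members, the log2 ratios of the number 2 pair correlated with those of the other 9 pairs at a median Pearson r of 0.35 in Tet2 and 0.30 in Tet2ΔRBD, against 0.91 to 0.94 for the Tet1 pairs and for pairs 1 and 3 of both Tet2 lines and 4 of Tet2. Pair 4 of Tet2ΔRBD had a median r of 0.60, and its input is the library that differs: the chi-square per gene between numbers 3 and 4 was 17.2 for the Tet2ΔRBD inputs but 2.79 to 3.62 for the other 3 groups, where sampling noise alone gives 1. These pairs are kept in the values below and named where they decide a result. In bulk libraries such as these, fewer cells expressing a gene and less RNA per cell cannot be told apart.

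Cebpz and Gnl2 had the 2 highest mean ratios of all 11784 expressed genes (mean input of at least 1 TPM) over the 10 pairs, Gnl2 first and Cebpz second. Cebpz (chr17:79318346-79336410, minus strand, mm9) is the counterpart of a yeast factor that acts early in 60S assembly, and its name comes from a reported binding to CCAAT boxes. Cebpz measured 29.6 and 28.7 TPM in the Tet1 IPs and 2.64 and 2.20 TPM in their inputs. Cebpz levels were 59.2, 62.1, 18.7 and 17.1 TPM in Tet2 IPs 1 to 4 and 2.65, 3.91, 2.50 and 2.74 TPM in the inputs of the same numbers. Cebpz in Tet2ΔRBD stood at 66.8, 6.95, 26.2 and 24.4 TPM in IP and 2.93, 1.60, 2.99 and 11.4 TPM in input. Cebpz was thus higher in IP than in input in every pair, by the least in pair 4 of Tet2ΔRBD, where the input stood above all other inputs. Its log2 ratio, computed throughout as log2((IP TPM + 1)/(input TPM + 1)), was 3.07 and 3.22 in the Tet1 pairs, 4.04, 3.69, 2.49 and 2.28 in the Tet2 pairs and 4.11, 1.61, 2.77 and 1.03 in the Tet2ΔRBD pairs. The means were 3.15 ± 0.10 (SD, n = 2), 3.12 ± 0.87 (SD, n = 4) and 2.38 ± 1.36 (SD, n = 4).

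Gnl2 (chr4:124693829-124732624, plus strand) encodes a nucleolar GTPase needed for late nuclear steps of 60S assembly. Gnl2 measured 26.4 and 28.1 TPM in the Tet1 IPs and 2.15 and 1.80 TPM in their inputs. Gnl2 levels were 69.7, 16.1, 13.4 and 12.4 TPM in Tet2 IPs 1 to 4 and 1.24, 3.77, 1.10 and 0.88 TPM in the inputs of the same numbers. Gnl2 in Tet2ΔRBD stood at 69.2, 3.38, 20.3 and 19.6 TPM in IP and 1.42, 1.88, 1.42 and 5.19 TPM in input. IP was above input in all pairs of the 3 lines, and number 2 had the lowest ratio in both Tet2 lines. The log2 ratios were 3.12 and 3.38 in Tet1, 4.98, 1.84, 2.77 and 2.83 in Tet2 and 4.86, 0.60, 3.14 and 1.74 in Tet2ΔRBD. In pair 2, Gnl2 ranked 404 of 11784 expressed genes in Tet2 and 2090 in Tet2ΔRBD, whereas it ranked between 2 and 12 in the other 8 pairs. Both genes have low input levels, a mean of 3.56 TPM for Cebpz and 2.08 TPM for Gnl2, and Gnl2 had as few as 36 expected counts in a library. Both are among 14 of the 53 members whose exons overlap a gene on the opposite strand, and the sources used here do not say that strand was used in counting, so such levels are uncertain. The neighbour of Cebpz, 1110001A16Rik, had a mean input of 62.1 TPM and mean log2 ratios of -0.64, -1.24 and -0.82 in Tet1, Tet2 and Tet2ΔRBD, and the neighbour of Gnl2, Dnali1, had a mean input of 0.073 TPM.

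**Figure D1:**
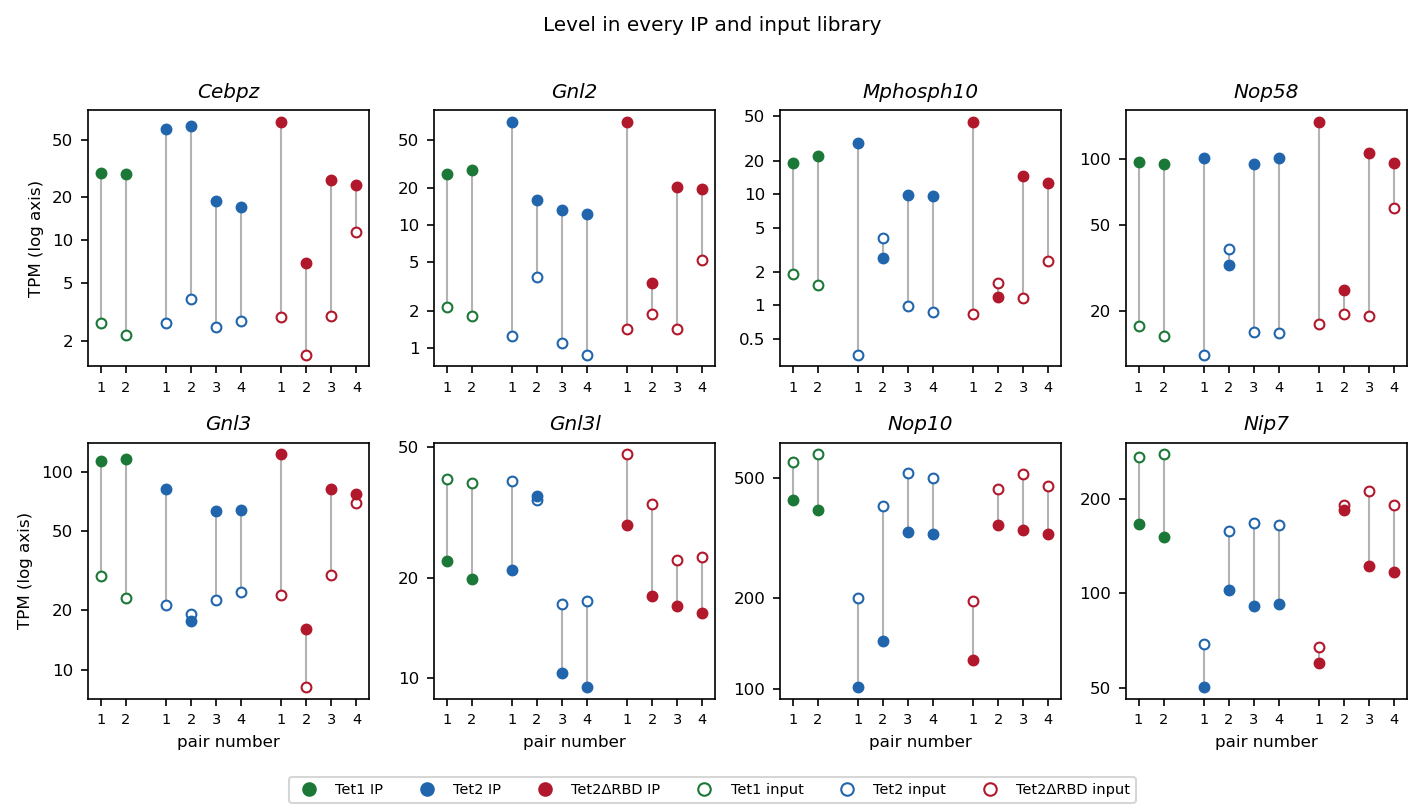
TPM (log axis) of 8 members in every library, with IP as filled and input as open points, joined within a pair, for Tet1 (green), Tet2 (blue) and Tet2ΔRBD (red). Cebpz and Gnl2 lie above input in all 10 pairs, Mphosph10 and Nop58 fall to or near their input in the number 2 pairs, and Gnl3l, Nop10 and Nip7 lie below input in nearly all pairs.

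The relatives of these genes by name did not share the ratio as a family. Gnl3 (nucleostemin), a nucleolar GTPase of the same family as Gnl2 and abundant in stem cells, came closest. Gnl3 measured 113 and 116 TPM in the Tet1 IPs and 29.8 and 23 TPM in their inputs. Gnl3 levels were 81.6, 17.6, 63.6 and 64.3 TPM in Tet2 IPs 1 to 4 and 21.2, 19.1, 22.6 and 24.8 TPM in the inputs of the same numbers. Gnl3 in Tet2ΔRBD stood at 122, 16.1, 82 and 77.5 TPM in IP and 23.9, 8.18, 30.02 and 69.7 TPM in input. The ratio was high in 7 pairs, near 0 in pair 2 of Tet2 and pair 4 of Tet2ΔRBD, and 0.90 in pair 2 of Tet2ΔRBD. Gnl3 was called above input in Tet1 (fitted log2 ratio 1.98 ± 0.50 (SE), edgeR adjusted p = 0.046), and the fitted values of 0.89 ± 0.36 in Tet2 and 0.96 ± 0.36 in Tet2ΔRBD missed the threshold of 0.05 (edgeR adjusted p = 0.08 and 0.083). The Tet1 call of Gnl3 lay near the threshold. Members called above input in Tet1 numbered 3, instead of 5, with the replicate block across lines. The count was also 3 with numbers 3 and 4 merged. Gnl3 shares exonic sequence with Glt8d1 on the other strand, whose mean log2 ratios were 0.50, 0.34 and 0.39.

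Gnl3l, the closest relative of Gnl3, went the other way. Gnl3l measured 22.6 and 19.9 TPM in the Tet1 IPs and 40.04 and 38.8 TPM in their inputs. Gnl3l levels were 21.2, 35.6, 10.3 and 9.39 TPM in Tet2 IPs 1 to 4 and 39.5, 34.6, 16.7 and 17 TPM in the inputs of the same numbers. Gnl3l in Tet2ΔRBD stood at 28.9, 17.7, 16.5 and 15.7 TPM in IP and 47.5, 33.7, 22.8 and 23.3 TPM in input. Input was higher than IP in every pair except number 2 of Tet2, where both were alike. The fit called Gnl3l below input in Tet1 (-1.04 ± 0.19), Tet2 (-0.92 ± 0.13) and Tet2ΔRBD (-0.94 ± 0.13), with edgeR adjusted p of 0.02, 0.00079 and 0.0014.

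Noc3l, which acts with Noc2l in 60S assembly and shares a domain with Cebpz, was close to its input. Noc3l measured 11.2 and 11.4 TPM in the Tet1 IPs and 10.8 and 8.80 TPM in their inputs. Noc3l levels were 9.32, 15.6, 7.28 and 6.99 TPM in Tet2 IPs 1 to 4 and 5.03, 10.6, 6.77 and 6.62 TPM in the inputs of the same numbers. Noc3l in Tet2ΔRBD stood at 11.6, 7.78, 10.7 and 11.5 TPM in IP and 6.36, 6.58, 10.4 and 13 TPM in input. The log2 ratio exceeded 0.5 in pair 1 of both Tet2 lines and pair 2 of Tet2 only. The fitted log2 ratios of 0.07 ± 0.23, 0.09 ± 0.16 and -0.04 ± 0.16 in Tet1, Tet2 and Tet2ΔRBD lay within 1 SE of 0.

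Noc4l, a partner of Nop14 in 40S assembly, was also close to its input. Noc4l measured 95.3 and 103 TPM in the Tet1 IPs and 85.1 and 91.5 TPM in their inputs. Noc4l levels were 58.5, 136, 86.7 and 79.97 TPM in Tet2 IPs 1 to 4 and 64.5, 131, 63.9 and 65 TPM in the inputs of the same numbers. Noc4l in Tet2ΔRBD stood at 71.7, 118, 108 and 112 TPM in IP and 74.8, 167, 74 and 72.9 TPM in input. IP and input overlapped in both Tet2 lines and were slightly apart in Tet1. The fitted log2 ratios were 0.02 ± 0.25, -0.15 ± 0.18 and -0.12 ± 0.18.

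Across the other 51 members the ratios were spread over a wide range, with a median above that of expressed genes. The median of their mean log2 ratio was 0.25 ± 0.07 in Tet1 (SD of the median per pair, n = 2), 0.51 ± 0.23 in Tet2 (n = 4) and 0.44 ± 0.12 in Tet2ΔRBD (n = 4), beside 0.08, 0.24 and 0.20 over the 11784 expressed genes. Without pair 2 the Tet2 median was 0.34, beside 0.19 for expressed genes. With Cebpz and Gnl2, the medians were 0.25, 0.60 and 0.45. In pair 4 of Tet2ΔRBD the 51 members were closest to expressed genes (0.20 against 0.18). A mean log2 ratio of at least 1, a doubling, was reached by 11 of the 51 other members in Tet1 (21.6%), 16 in Tet2 (31.4%) and 10 in Tet2ΔRBD (19.6%), against 4.76%, 5.99% and 3.39% of expressed genes. A level above input in every pair was seen for 35 of the 51 in Tet1, 27 in Tet2 and 24 in Tet2ΔRBD, which is 68.6%, 52.9% and 47.1% beside 50.5%, 47.0% and 31.0% of expressed genes. A level below input in every pair was seen for 7, 3 and 4 members (13.7%, 5.88% and 7.84%), beside 32.3%, 13.4% and 9.57% of expressed genes. With each pair centred on the median of expressed genes, the medians of the 51 members were 0.17, 0.28 and 0.27.

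**Figure D2:**
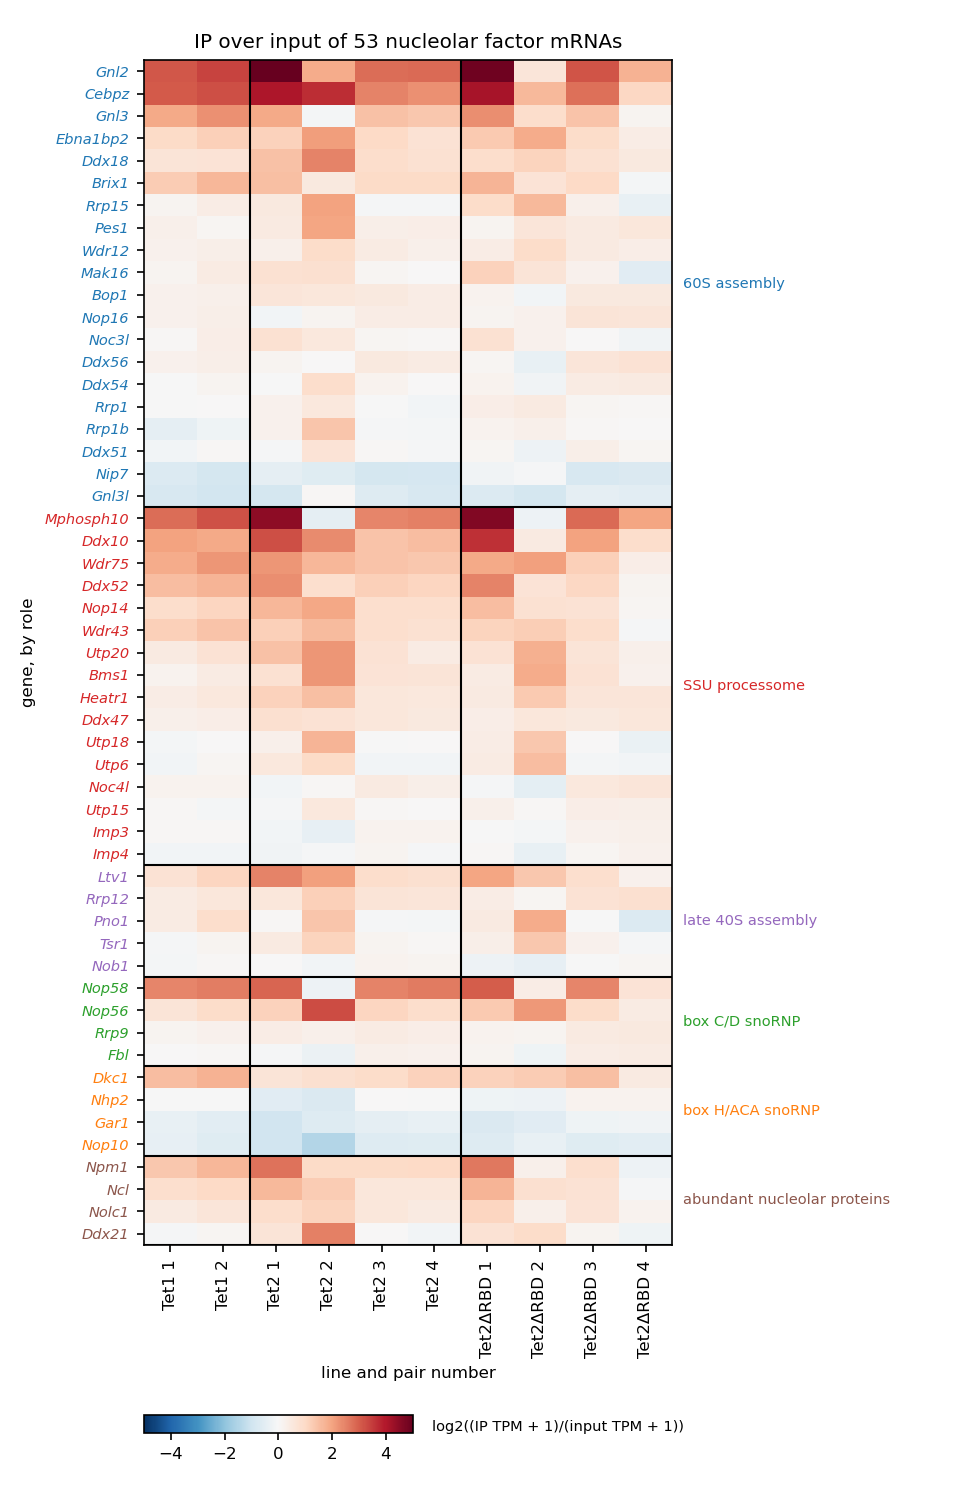
The log2 ratio of IP to input (TPM + 1) for the 53 members, grouped by role and ordered by their mean, in the 10 pairs. Cebpz, Gnl2, Mphosph10, Ddx10 and Nop58 are dark red in most pairs, the number 2 pairs show another order of genes, and Tet2ΔRBD pair 4 is pale throughout.

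Of the 51 other members, 18 were above input in all 10 pairs (35.3%, beside 22.7% of expressed genes), among them Ddx10, Wdr75, Nop14, Nop56, Dkc1, Ltv1 and Nolc1. Gar1, Nop10 and Nip7 were below input in all 10 (5.88%, beside 6.48%).

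All 53 members passed the filter of the count fit (at least 1 CPM in 2 libraries), in which 13710 genes were tested and the IP effect of each line was relative to the bulk of genes (median fitted log2 ratio of all genes -0.04 in Tet1, 0.00 in Tet2 and -0.01 in Tet2ΔRBD). Of the 51 other members, 5 were called above input in Tet1 (9.80%, beside 2.72% of all genes tested) and 2 below (3.92%, beside 3.18%). In Tet2 18 were above (35.3%, beside 14.6%) and 6 below (11.8%, beside 18.5%). In Tet2ΔRBD 4 were above (7.84%, beside 7.4%) and 5 below (9.80%, beside 12.1%). In either direction these are 7, 24 and 9 members, beside 5.9%, 33.1% and 19.5% of all genes. At an unadjusted p under 0.05 the counts were 18, 30 and 24 of 51, beside 23.5%, 45% and 35.4% of all genes. In Tet2ΔRBD the share above input depended on the setting: with DESeq2 16 were above (31.4%, beside 12.8% of all genes) and 5 below (9.80%, beside 11.1%), with limma on TPM 23 were above (45.1%, beside 23.5%) and 4 below (7.84%, beside 4.59%), with the replicate block across lines 15 were above (29.4%, beside 13.3%), and without pair 4 11 were above (21.6%, beside 8.96%). Without its pair 1 or its pair 3, 1 was above (1.96%, beside 2.68% and 1.51%). Without any pair block 0, 4 and 0 members passed in Tet1, Tet2 and Tet2ΔRBD, as did 0.0%, 2.74% and 0.336% of all genes.

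**Figure D3:**
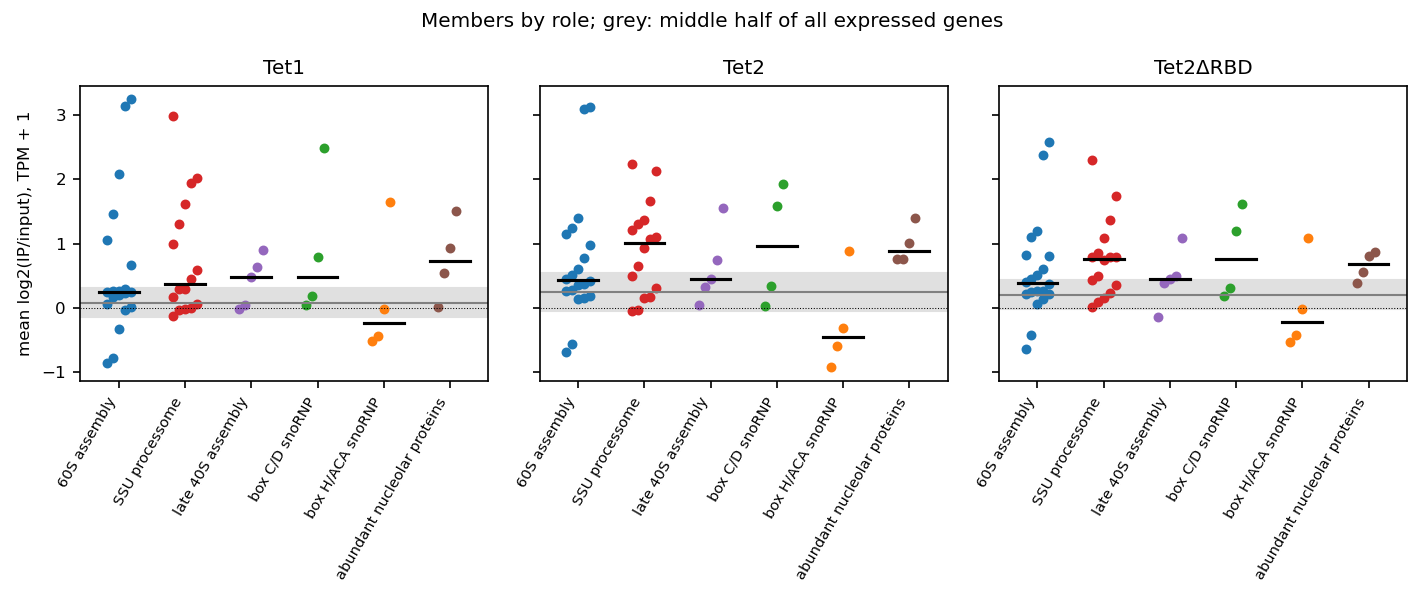
Mean log2 ratio (TPM + 1) of each member by role in Tet1, Tet2 and Tet2ΔRBD, with a black bar at the median of the role, a grey line at the median of the 11784 expressed genes and a grey band over their middle range between quartiles. SSU processome members reach from 0 to above 2 in each line, and 3 of the 4 box H/ACA members lie at or below 0.

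Members of the SSU processome, the early complex on the 5′ part of the pre-rRNA, held the most calls in Tet2. Of 16 tested, 8 rose (50%, beside 14.6% of all genes), 1 fell (6.25%, beside 18.5%) and 7 did not pass, with a median fitted log2 ratio of 0.72. In Tet1 and in Tet2ΔRBD 2 of 16 rose and 0 fell (12.5%, beside 2.72% and 7.4% of all genes). Mphosph10, which forms a complex with Imp3 and Imp4 on the U3 snoRNP, had the highest mean ratio after Cebpz and Gnl2. Mphosph10 measured 19.2 and 21.9 TPM in the Tet1 IPs and 1.91 and 1.52 TPM in their inputs. Mphosph10 levels were 28.9, 2.67, 9.74 and 9.64 TPM in Tet2 IPs 1 to 4 and 0.36, 3.99, 0.98 and 0.86 TPM in the inputs of the same numbers. Mphosph10 in Tet2ΔRBD stood at 44.5, 1.18, 14.5 and 12.6 TPM in IP and 0.83, 1.58, 1.16 and 2.48 TPM in input. IP was well above input in 8 pairs and slightly below it in the number 2 pair of both Tet2 lines. The log2 ratios were 2.79 and 3.19 in Tet1, 4.46, -0.44, 2.44 and 2.52 in Tet2 and 4.64, -0.24, 2.84 and 1.97 in Tet2ΔRBD, and its mean over all 10 pairs ranked 6 of the 11784 expressed genes. The fitted values, 3.44 ± 1.37, 2.80 ± 1.12 and 2.58 ± 1.06, missed the threshold (edgeR adjusted p = 0.16, 0.076 and 0.11), and the lowest library held 16 expected counts. In Tet1 the 2 pairs alone had an SD of 0.28, and the SE there holds the spread of the Tet2 lines too.

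The mRNA of its partner Imp3 was close to its input on the TPM scale. Imp3 measured 153 and 149 TPM in the Tet1 IPs and 149 and 142 TPM in their inputs. Imp3 levels were 116, 97.9, 120.3 and 122 TPM in Tet2 IPs 1 to 4 and 128, 131, 105 and 109 TPM in the inputs of the same numbers. Imp3 in Tet2ΔRBD stood at 125, 149, 136 and 135 TPM in IP and 128, 159, 117 and 113 TPM in input. The 2 sets of values overlapped in each line. The fitted ratio in Tet2 was -0.37 ± 0.14 (edgeR adjusted p = 0.069). Imp4, the remaining member of the complex, had about the same fitted value in Tet2 (-0.36 ± 0.11) and passed the threshold (edgeR adjusted p = 0.028), with a mean log2 TPM ratio of -0.04.

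The other calls of the SSU processome in Tet2 included the RNA helicases Ddx10 (fitted log2 ratio 2.18 ± 0.49), Ddx52 (1.26 ± 0.37) and Ddx47 (0.34 ± 0.10). The subunits Wdr75 (1.42 ± 0.27), Wdr43 (0.82 ± 0.20) and Heatr1 (0.65 ± 0.18) were called too. So were the Noc4l partner Nop14 (1.07 ± 0.21) and the large scaffold protein Utp20 (0.98 ± 0.31). Wdr75 was the only member called above input in all 3 lines besides Dkc1, at 1.95 ± 0.38 in Tet1 and 1.15 ± 0.27 in Tet2ΔRBD. Ddx10 rose in Tet2ΔRBD too (1.71 ± 0.51), and Wdr43 in Tet1 (1.18 ± 0.28). Utp6, Utp15 and Utp18, subunits of the same processome, had fitted values between -0.17 and 0.17 in Tet2 and were not called.

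Among 18 tested 60S assembly factors, 3 rose in Tet2 (16.7%, beside 14.6% of all genes), 2 fell (11.1%, beside 18.5%) and 13 did not pass, with a median of 0.10, so the shares were near or below those of all genes. Those that rose were the helicase Ddx18 (1.09 ± 0.21), Ebna1bp2 (0.95 ± 0.24) and Brix1 (0.70 ± 0.24). Ebna1bp2 was also above input in Tet2ΔRBD (0.86 ± 0.25) and Brix1 in Tet1 (1.35 ± 0.34). Pes1, Bop1 and Wdr12, which form the PeBoW complex of pre-60S particles, had fitted log2 ratios of 0.45 ± 0.23, 0.20 ± 0.10 and 0.14 ± 0.15 in Tet2, and none passed.

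Nip7, a small protein needed for 60S pre-rRNA processing, fell with Gnl3l in the 3 lines. Nip7 measured 166 and 151 TPM in the Tet1 IPs and 271 and 276 TPM in their inputs. Nip7 levels were 50.5, 103, 91.5 and 92.6 TPM in Tet2 IPs 1 to 4 and 69.4, 158, 167 and 165 TPM in the inputs of the same numbers. Nip7 in Tet2ΔRBD stood at 60.3, 184, 122 and 117 TPM in IP and 67.9, 191, 212 and 191 TPM in input. IP lay below input in each pair, by the least in number 1 and 2 of Tet2ΔRBD. The number 1 pairs of both Tet2 lines had lower levels than the other pairs, in IP and in input. The fitted values were -0.94 ± 0.21 in Tet1, -1.01 ± 0.15 in Tet2 and -0.71 ± 0.15 in Tet2ΔRBD (edgeR adjusted p = 0.033, 0.00085 and 0.01).

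Of the 5 factors of late 40S assembly, 2 rose in Tet2 (40%, beside 14.6% of all genes) and 3 did not pass. Ltv1, which leaves the pre-40S particle before its final maturation, had the highest ratio of this group. Ltv1 measured 57.9 and 57 TPM in the Tet1 IPs and 34.9 and 26.2 TPM in their inputs. Ltv1 levels were 54.8, 74.7, 32.9 and 32.2 TPM in Tet2 IPs 1 to 4 and 9.08, 17.2, 17.2 and 17.9 TPM in the inputs of the same numbers. Ltv1 in Tet2ΔRBD stood at 54.5, 25.7, 42.3 and 41.7 TPM in IP and 13.3, 9.63, 23.3 and 35.7 TPM in input. IP exceeded input in all pairs, most in numbers 1 and 2 of both Tet2 lines and least in pair 4 of Tet2ΔRBD. The call was made in Tet2 (1.30 ± 0.30, edgeR adjusted p = 0.0085), and the values of 0.78 ± 0.41 in Tet1 and 0.86 ± 0.30 in Tet2ΔRBD did not pass. Rrp12, which helps to export pre-ribosomes, rose less (0.46 ± 0.13).

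Nob1, the endonuclease that makes the 3′ end of 18S rRNA, had the lowest ratio of this group. Nob1 measured 98.9 and 108 TPM in the Tet1 IPs and 105 and 105 TPM in their inputs. Nob1 levels were 64.7, 80.5, 56.9 and 55.9 TPM in Tet2 IPs 1 to 4 and 64, 89.2, 50.8 and 50.6 TPM in the inputs of the same numbers. Nob1 in Tet2ΔRBD stood at 64.3, 68.9, 71.1 and 71.7 TPM in IP and 76.5, 90.8, 72.1 and 66.9 TPM in input. IP and input were of like size in every pair. Relative to the bulk of genes the fit placed Nob1 below input in Tet2ΔRBD (-0.42 ± 0.12, edgeR adjusted p = 0.031), with -0.28 ± 0.12 in Tet2 not past the threshold.

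The mRNAs of the box C/D snoRNP proteins held 2 calls of 4 tested in Tet2, both above input (50%, beside 14.6% of all genes). There were 0 calls in Tet1 and Tet2ΔRBD, where 5.9% and 19.5% of all genes passed in either direction. Nop58 and Nop56, the paired scaffold proteins, rose in Tet2, and the methyltransferase Fbl (fibrillarin) and the U3 protein Rrp9 did not pass. Differences between these genes were not tested. Nop58 measured 97.2 and 95.1 TPM in the Tet1 IPs and 17.1 and 15.5 TPM in their inputs. Nop58 levels were 101, 32.7, 95.5 and 102 TPM in Tet2 IPs 1 to 4 and 12.7, 38.8, 16.1 and 16 TPM in the inputs of the same numbers. Nop58 in Tet2ΔRBD stood at 148, 25.1, 107 and 96.4 TPM in IP and 17.5, 19.4, 19.1 and 59.7 TPM in input. Nop58 was 5- to 8-fold above input in 7 pairs, and by less in numbers 2 and 4 of Tet2ΔRBD, while number 2 of Tet2 lay below input. The log2 ratios were 2.44 and 2.54, 2.90, -0.24, 2.50 and 2.59 and 3.01, 0.36, 2.43 and 0.68 in the 3 lines. Fitted values were 2.41 ± 0.77 in Tet1, 1.78 ± 0.58 in Tet2 and 1.38 ± 0.56 in Tet2ΔRBD, past the threshold in Tet2 only (edgeR adjusted p = 0.089, 0.038 and 0.1). The Tet1 SE holds the spread of the Tet2 lines, as the 2 Tet1 pairs alone had an SD of 0.07. Nop56 had its highest ratio in the pair where Nop58 had its lowest, 1.14, 3.24, 1.09 and 0.88 in Tet2 pairs 1 to 4 (fitted 1.25 ± 0.37). Nop56 shares exonic sequence with Idh3b on the other strand, which had a mean log2 ratio of 0.04 in Tet2.

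Fibrillarin, one of the more abundant mRNAs of the list, had no such ratio. Fbl measured 506 and 522 TPM in the Tet1 IPs and 494 and 507 TPM in their inputs. Fbl levels were 429, 516, 439 and 419 TPM in Tet2 IPs 1 to 4 and 446, 637, 373 and 356 TPM in the inputs of the same numbers. Fbl in Tet2ΔRBD stood at 526, 626, 587 and 622 TPM in IP and 482, 725, 449 and 463 TPM in input. IP and input overlapped in the 3 lines. The fitted ratios were -0.11 ± 0.20, -0.29 ± 0.15 and -0.09 ± 0.14.

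Of the box H/ACA snoRNP proteins, the pseudouridine synthase Dkc1 (dyskerin) rose in the 3 lines, and its 3 small partners fell in Tet2. Above input this is 25% of 4 in each line, beside 2.72%, 14.6% and 7.4% of all genes in Tet1, Tet2 and Tet2ΔRBD. Below input it is 75% in Tet2, beside 18.5%, and 50% in Tet2ΔRBD, beside 12.1%. Dkc1 measured 93.2 and 90.3 TPM in the Tet1 IPs and 31.1 and 26.2 TPM in their inputs. Dkc1 levels were 108, 75.3, 89.1 and 87.6 TPM in Tet2 IPs 1 to 4 and 68, 43, 47.2 and 39 TPM in the inputs of the same numbers. Dkc1 in Tet2ΔRBD stood at 134, 44.6, 90.8 and 85.5 TPM in IP and 60.3, 17.9, 31.4 and 62.2 TPM in input. Dkc1 exceeded input in all 10 pairs. Its fitted log2 ratio was 1.54 ± 0.25 in Tet1, 0.57 ± 0.17 in Tet2 and 0.84 ± 0.18 in Tet2ΔRBD, each past the threshold (edgeR adjusted p = 0.019, 0.028 and 0.0099). Its gene lies on the X chromosome and shares exonic sequence with Mpp1, whose mean log2 ratios were 0.19, 0.28 and 0.32.

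Nop10, the smallest protein of the particle, had the lowest mean ratio of all members in Tet2. Nop10 measured 423 and 390.3 TPM in the Tet1 IPs and 565 and 598 TPM in their inputs. Nop10 levels were 101, 144, 329.9 and 325 TPM in Tet2 IPs 1 to 4 and 200.2, 403, 520.2 and 501 TPM in the inputs of the same numbers. Nop10 in Tet2ΔRBD stood at 124, 349, 335 and 327 TPM in IP and 195, 458, 516 and 469.7 TPM in input. Every IP library was below its input, and the groups of IP and input values did not overlap in Tet1. Nop10 fell in Tet2 (-1.25 ± 0.18, edgeR adjusted p = 0.00076) and in Tet2ΔRBD (-0.82 ± 0.17, edgeR adjusted p = 0.011). Gar1 fell in the same 2 lines (-0.93 ± 0.15 and -0.70 ± 0.15) and Nhp2 in Tet2 (-0.63 ± 0.17). In Tet1 the fitted values of Nop10, Gar1 and Nhp2 were -0.67 ± 0.25, -0.60 ± 0.21 and -0.17 ± 0.24, none past the threshold.

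Of the 4 abundant nucleolar proteins, nucleolin (Ncl, 0.69 ± 0.23) and Nolc1 (0.46 ± 0.12) rose in Tet2 (50%, beside 14.6% of all genes). Npm1 and the helicase Ddx21 (0.42 ± 0.35) did not pass there. Npm1 (nucleophosmin), a chaperone of histones and ribosomal proteins, was the most abundant member. Npm1 measured 2127 and 2023 TPM in the Tet1 IPs and 827 and 643 TPM in their inputs. Npm1 levels were 2022, 896, 1278 and 1223 TPM in Tet2 IPs 1 to 4 and 305, 458, 661 and 621 TPM in the inputs of the same numbers. Npm1 in Tet2ΔRBD stood at 2375, 338, 1408 and 1324 TPM in IP and 380.4, 286, 783 and 1558 TPM in input. Its ratio was highest in number 1 of both Tet2 lines and below 0 in pair 4 of Tet2ΔRBD, whose input was the highest of all inputs. The fitted ratio of 1.06 ± 0.40 in Tet2 missed the threshold (edgeR adjusted p = 0.06). Npm1 has many processed pseudogenes in mammals, between which reads can be divided, so its level is uncertain.

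Nolc1 (Nopp140), which binds snoRNPs in the nucleolus and in Cajal bodies, had a ratio above 0 in each pair, from 0.18 to 1.12. Nolc1 measured 76.5 and 78 TPM in the Tet1 IPs and 55.1 and 51.3 TPM in their inputs. Nolc1 levels were 58.7, 98.8, 48.2 and 45 TPM in Tet2 IPs 1 to 4 and 31.1, 44.9, 32.2 and 33 TPM in the inputs of the same numbers. Nolc1 in Tet2ΔRBD stood at 96.5, 32.2, 72.5 and 72.2 TPM in IP and 45.5, 26.6, 44.2 and 63.7 TPM in input. Pairs 2 and 4 of Tet2ΔRBD had the lowest ratios. The fitted value passed in Tet2 (0.46 ± 0.12, edgeR adjusted p = 0.018) and missed the threshold in Tet1 (0.39 ± 0.18) and Tet2ΔRBD (0.29 ± 0.12), with edgeR adjusted p of 0.21 and 0.13.

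The comparison of Tet2 with Tet2ΔRBD asked whether the ratios depended on the RBD. No member passed for this difference, at an unadjusted p under 0.05 either, while 3 of 13710 genes passed (0.0219%) and 416 (3.03%) had an unadjusted p under 0.05. DESeq2 and limma called 0 members as well. The fitted differences of the 51 other members, Tet2 minus Tet2ΔRBD on the log2 scale, lay between -0.43 and 0.55 with a median of 0.10, beside -0.01 for all genes. Ddx18 had the highest, 0.55 ± 0.30, which within 2 SE reaches from -0.05 to 1.15. Its log2 ratios were 1.47, 2.48, 0.90 and 0.75 in Tet2 and 0.86, 1.10, 0.78 and 0.49 in Tet2ΔRBD. The ratio was higher in Tet2 at all 4 numbers for Ddx18, Utp20, Nop14, Nob1, Ltv1 and Npm1. It was lower at all 4 for Nop10, Gar1, Nhp2, Fbl, Imp3, Nop16, Wdr12 and Nip7. Some of these gaps were very small, such as -0.11, -0.02, -0.03 and -0.07 for Wdr12. The shares of all genes with 1 direction at all 4 numbers are not given here. Numbers 3 and 4 are also far more alike than the others, so these names are a description and show no dependence on the RBD. Nop10 had the lowest fitted difference, -0.43 ± 0.25, with 2 SE reaching from -0.93 to 0.07. These intervals leave room for a difference of 2-fold in either direction for several members, Nop58 and Mphosph10 among them.

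For Cebpz and Gnl2 the fitted differences were 0.77 ± 0.61 and 0.76 ± 1.01, given without a test. They came from numbers 2 and 4. For Cebpz the ratio in Tet2 minus that in Tet2ΔRBD was -0.06, 2.07, -0.27 and 1.24 at numbers 1 to 4. Number 4 is the pair with the Tet2ΔRBD input that stood apart. In that input the members were a median of 0.18 above input 3 on the log2 scale and as much as 1.64 above it, while IPs 3 and 4 of the same line differed by -0.18 to 0.10 for every member. The median difference of the members, Tet2 minus Tet2ΔRBD, was -0.11, 0.31, -0.06 and 0.10 at numbers 1 to 4, beside -0.06, 0.32, -0.08 and -0.09 for expressed genes. The members higher in Tet2 numbered 20, 36, 16 and 29 of 53.

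**Figure D4:**
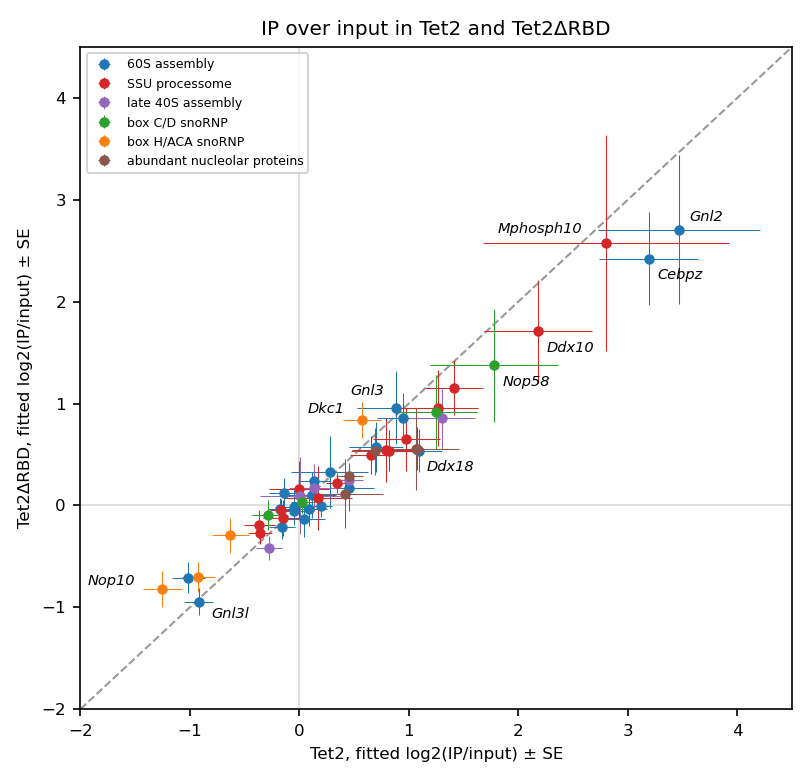
Fitted log2 ratio of IP to input in Tet2 (horizontal) and Tet2ΔRBD (vertical) for the 53 members, coloured by role, with bars of 1 SE and a dashed line where both are equal. Members lie along the line, with Cebpz and Gnl2 below it by less than 1 on the log2 scale and Dkc1 above it.

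Input levels of the members were compared as well, since a changed input changes the ratio. No member passed for Tet2ΔRBD against Tet2 input, by edgeR or by DESeq2, and 0 had an unadjusted p under 0.05. No gene of 13178 passed by edgeR (0.0% in either direction), and 248 (1.88%) had an unadjusted p under 0.05. The fitted input levels were higher in Tet2ΔRBD for 50 of the 51 members, by a median of 0.27 on the log2 scale, beside 7672 of 13178 genes (58.2%) and a median of 0.04, and without number 4 of Tet2ΔRBD for 42 of 51, by a median of 0.17. With the replicate number as a block, 49 of 51 were higher by a median of 0.22, 8 had an unadjusted p under 0.05 and 0 passed. How all genes moved without number 4 or with this block is not given here, so those counts only describe the members.

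Tet1 was set against Tet2 in the same way, with 2 pairs against 4. No member and no gene passed for this difference by edgeR, and 1 member, Dkc1, had an unadjusted p under 0.05 (0.96 ± 0.30, Tet1 minus Tet2), as had 517 genes (3.77%). DESeq2 and limma called 0 members. The labels do not state library sets. As read from the deposited names, Tet1 was measured in a single set, which it shared with pairs 3 and 4 of Tet2. Within that set the members' median log2 ratio was 0.22 and 0.35 in the Tet1 pairs and 0.43 and 0.36 in the Tet2 pairs. The Dkc1 ratio there was 1.55 and 1.75 in Tet1 against 0.90 and 1.15 in Tet2. Of the 5 members above input in Tet1, 4 were among the 18 of Tet2 (Brix1, Dkc1, Wdr43 and Wdr75). The same overlap over all genes is not given here, so this count only describes the members.

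Adenine content of the coding sequence was not used in the choice of members. It followed the mean ratio of each line more closely among the members than among genes in general. Across the 53 members Spearman's rho between the percentage of A and the mean log2 ratio was 0.69 in Tet1, 0.70 in Tet2 and 0.72 in Tet2ΔRBD, against 0.19, 0.12 and 0.19 across 11279 expressed genes. Without Cebpz and Gnl2 it was 0.66, 0.68 and 0.70. Genes are not independent replicates, and all points of a line share the same libraries. The 18 members with the most A (31.49 to 37.10%) had a median of 1.23 in Tet2, ranging from 0.36 to 3.12. The 18 with the least A (17.66 to 27.18%) had a median of 0.16, ranging from -0.93 to 0.94. Cebpz, Gnl2, Mphosph10, Ddx10, Nop58, Gnl3, Dkc1 and Ltv1 were in the first group and Nop10, Nip7, Gar1, Nhp2, Imp3, Imp4 and Fbl in the second. The first group also held members called in no line, such as Noc3l, Mak16, Rrp15 and Ddx21. The second also held Heatr1, Ddx47 and Rrp12, which were called above input in Tet2. Members as a whole were richer in A than other genes, with a median of 28.87% against 25.09%.

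The relation was present in 9 pairs, with rho between 0.36 (Tet2 pair 2) and 0.87 (Tet2ΔRBD pair 1) across members. Across expressed genes rho in those pairs ran from -0.05 (Tet2 pair 3) to 0.46 (Tet2ΔRBD pair 2, where members had 0.48). In pair 4 of Tet2ΔRBD rho was -0.13 across members and -0.33 across expressed genes. GC content ran the opposite way (rho -0.64, -0.67 and -0.69), and in that pair the ratio of expressed genes rose with GC (rho 0.35) whereas rho was -0.35 to 0.08 in the other 9 pairs. Whether base composition acted on the libraries or on the IP was not tested. Coding length also rose with the ratio, at rho 0.32, 0.53 and 0.40 across members and 0.36, 0.59 and 0.49 across expressed genes. The input level fell with it (rho -0.49, -0.56 and -0.53 across members), but the input is the denominator of the ratio. The longest run of pyrimidines had rho of -0.24, -0.14 and -0.21. Among members, adenine content was itself lower where the input level was higher (rho -0.47, beside -0.01 across expressed genes). Their separate parts in the ratio were not tested.

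**Figure D5:**
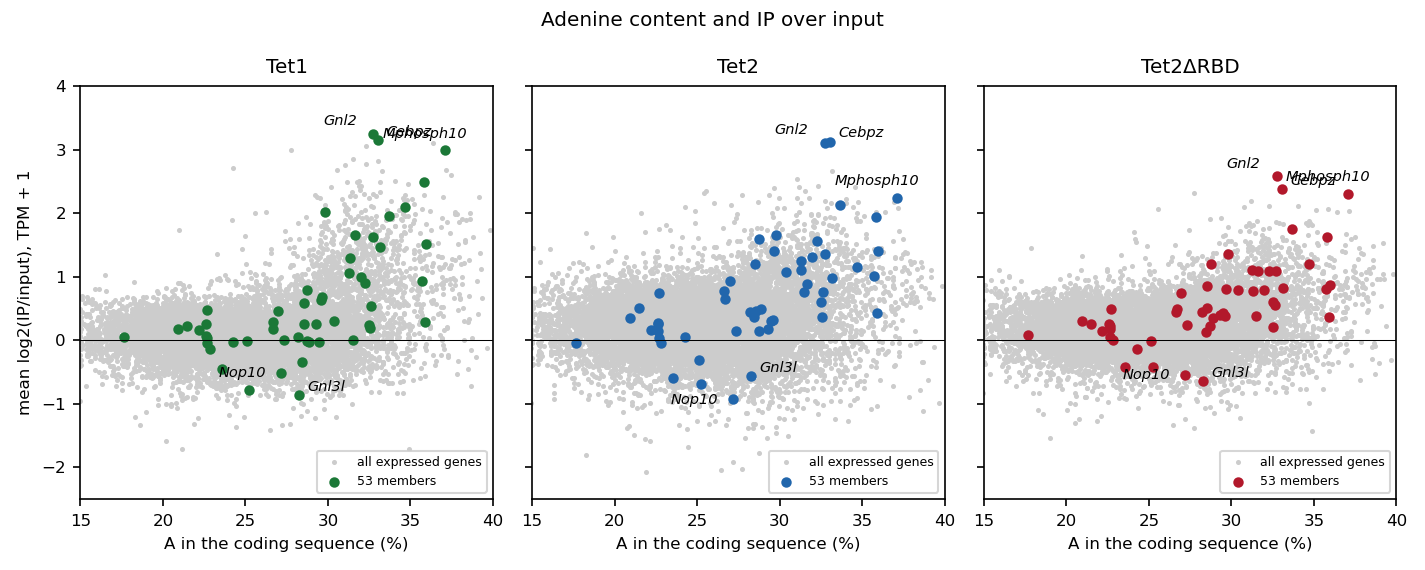
Percentage of A in the coding sequence against the mean log2 ratio of IP to input in Tet1, Tet2 and Tet2ΔRBD, for 53 members (colour) and 11279 expressed genes (grey; 319 points over the 3 panels lie outside the axes). Members with over 30% A reach the highest ratios, and the members furthest below input hold less than 30% A.

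Introns of 7 members hold annotated small nucleolar RNAs: Dkc1, Gnl3, Ncl, Nop56, Nop58, Tsr1 and Wdr43. Nop58, for example, carries Snord70 and Snord11, Nop56 carries Snord110 and Gnl3 carries Snord19 and Snord69. The median log2 ratio of these 7 hosts was 1.30 in Tet1, 1.10 in Tet2 and 1.09 in Tet2ΔRBD, against 0.25, 0.47 and 0.39 for the other 46 members, and the ranges overlapped (0.44 to 1.94 and -0.93 to 3.12 in Tet2). This difference was noticed among the members and was not tested.

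Among all genes compared, those whose ratios followed Cebpz and Gnl2 most closely over the 10 pairs were mostly no ribosome assembly factors. With 11668 genes against 52 members, the larger pool is expected to hold most of the closest genes and higher top values. This is therefore no result about the members. Among members, Ddx10 (Pearson r = 0.93), Ncl, Nolc1, Npm1 and Nop14 (0.90 to 0.91) were most like Cebpz, and Mphosph10 (0.92), Npm1, Ddx52, Ddx10 and Nop58 (0.84 to 0.91) most like Gnl2. Of all 11668 genes compared, Cspp1, Shprh, Smg1, Mtdh and Ikbip were most like Cebpz (0.97 to 0.98) and Rbm25, Kif11, Dnajc21 and Golga5 most like Gnl2 (0.99). The median member had r = 0.22 with Cebpz and -0.03 with Gnl2, beside 0.20 and 0.10 for all genes.

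A further 103 ribosome assembly genes outside the list were read from the same fit. In Tet2, 13 rose (12.6%) and 10 fell (9.71%), beside 14.6% and 18.5% of all genes, and the median fitted log2 ratio was 0.17. In Tet1 2 rose and 2 fell (1.94% each, beside 2.72% and 3.18%). In Tet2ΔRBD 3 rose and 9 fell (2.91% and 8.74%, beside 7.4% and 12.1%). The shares called in either direction were thus below those of all genes in each line. Yet the median fitted log2 ratios of the 103 genes lay above those of all genes. They were 0.07, 0.17 and 0.05 in Tet1, Tet2 and Tet2ΔRBD, beside -0.04, 0.00 and -0.01. Nufip1, a snoRNP assembly factor, had the highest value in Tet2 (1.48 ± 0.40 (SE), edgeR adjusted p = 0.016), followed by the SSU processome factor Utp14a (1.39 ± 0.27, edgeR adjusted p = 0.0036) and the methyltransferase Ftsj3 (1.15 ± 0.37, edgeR adjusted p = 0.036). Lyar had the same value as Ftsj3 at this rounding (1.15 ± 0.23, edgeR adjusted p = 0.0039). Rrs1, which brings 5S rRNA into the 60S particle, had the lowest value in Tet2 (-1.02 ± 0.09, edgeR adjusted p = 7.8e-05). None of these reached the ratio of Cebpz or Gnl2.

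The IP was made from cytoplasmic extract and the input from total RNA. RNAs that stay in the nucleus did not move together: Neat1 had mean log2 ratios of -0.67, -0.68 and -0.59 in Tet1, Tet2 and Tet2ΔRBD, and Malat1 0.35, -0.10 and -0.12. The part of RNA localisation in the members' ratios was not tested.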

How the data were processed

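The 20 RIP-Seq libraries comprised IP and input pairs of Tet1 (2), Tet2 (4) and Tet2ΔRBD (4), grouped and numbered from the sample labels. Per the labels and the study's methods, the authors trimmed reads with Trimmomatic, checked them with FastQC, aligned them to mm9 with Bowtie2 and RSEM, and deposited an expected count for every gene with no normalization. They also deposited TPM with a pseudocount of 1 added, turned here into TPM by subtracting 1, and FPKM, which were not used. Tool versions and strand settings are not given in the sources used here.

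Expected counts were rounded to whole numbers and fitted over all libraries with edgeR 4.0.16 (R 4.3.3; TMM, quasi-likelihood test), with pairs as blocks and 1 IP term per line. A gene entered the fit with 1 CPM or more in 2 libraries, and Benjamini-Hochberg adjustment ran over all genes at a threshold of 0.05. Standard errors were derived from the F statistic of the fitted value. Input was compared between Tet2ΔRBD and Tet2 in 8 libraries. Ratios, medians and counts above input used log2((IP TPM + 1)/(input TPM + 1)), with no test. The fits were tested on simulated data. Alternatives were DESeq2 1.42.0, limma 3.58.1 on log2 TPM, RLE factors, no filter, other blocks, compared lines only, other pseudocounts, merged numbers and leaving out pairs. Totals of 21078995 to 37576638 expected counts make counting error small except for the rarest members.

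The pairing comes from the replicate numbers in the labels: deviations from the group mean correlated between IP and input of the same number at 0.607 to 0.870 in Tet2 and 0.586 to 0.840 in Tet2ΔRBD, and between Tet2 and Tet2ΔRBD inputs of the same number at 0.686 to 0.902. Tet2 IP 4 correlated with input 3 at 0.811, against 0.789 with its own input. Tet2ΔRBD IP 4 correlated with input 3 at 0.741, against 0.586 with its own. These correlations therefore do not single out the pairing within numbers 3 and 4. In Tet1 the value was 0.302 for the same number and -0.302 for unlike numbers, which 2 libraries per group make mirror images. Numbers 3 and 4 were far more alike than other numbers of the Tet2 lines. Within these lines the chi-square per gene was 2.79 to 17.2 between numbers 3 and 4 and 140 to 559 otherwise. Between the 2 numbers of Tet1 it was 7.92 in IP and 8.04 in input. The small SDs over the 2 Tet1 pairs may therefore not measure the spread between separate cultures. The values between numbers 3 and 4 exceed sampling noise, but that does not show that they were separate cultures. Numbers 3 and 4 were kept apart, so the fit counts them as separate pairs. If they came from 1 culture, its p-values in both Tet2 lines are too small. With the 2 numbers merged, 12 members were above input in Tet2 (23.5%, beside 9.29% of all genes) instead of 18.

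Members and lists were chosen with earlier results of these data known. Named with full values were Cebpz, Gnl2, their relatives by name, the members with the highest and lowest ratio of each role in Tet2, and those with the extreme differences between Tet2 lines; other called members were named with the fitted ratio. Likeness was Pearson's r over the 10 pairs. Coding sequences and positions are those of gencode vM1 (mm9). Older symbols of the 103 further genes were matched through RefSeq names, and all matched.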

Additional observations from a re-analysis of the deposited data

Results flagged for a closer look

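In groups of 4 pairs, a value far from the other 3 was looked for among the log2 ratios of the members described in full and the medians over members, in 36 groups, of which chance alone marks about 1 in 20. There were 2 such values. Nop58 had a log2 ratio of -0.24 in pair 2 of Tet2, while the other 3 pairs lay between 2.50 and 2.90. Npm1 had a ratio of 2.72 in pair 1 of Tet2, while the others lay between 0.95 and 0.98.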

How the results depend on the processing

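Of the 51 other members, 7 passed in Tet1, 24 in Tet2 and 9 in Tet2ΔRBD. In Tet1 the count was 11 with DESeq2 (21.6%, beside 11.5% of all genes), 31 with the compared lines only (60.8%, beside 55.0%) and 4 with numbers 3 and 4 merged (7.84%, beside 2.32%). In Tet2ΔRBD it was 21 with DESeq2 (41.2%, beside 23.9%), 27 with limma at either pseudocount (52.9%, beside 28.1% and 29.2%) and 3 with the compared lines only (5.88%, beside 5.64%). With limma, 26 members rose and 4 fell in Tet2, instead of 18 and 6, beside 35.0% and 8.12% of all genes. Merging numbers 3 and 4 gave 17 in Tet2 (33.3%, beside 23.4%) and 6 in Tet2ΔRBD (11.8%, beside 7.79%). Leaving out number 2 of both Tet2 lines, chosen after seeing the data, gave 14 in Tet1 (27.5%, beside 20.9%), 27 in Tet2 (52.9%, beside 38.3%) and 15 in Tet2ΔRBD (29.4%, beside 30.8%). Leaving out 1 pair at a time gave 0 to 10 in Tet1, 15 to 27 in Tet2 and 3 to 16 in Tet2ΔRBD. The Tet1 count was 0 without either Tet1 pair, where no gene of the table passed and the spread came from the other lines, 3 without Tet2 pair 3 or 4 and 4 without Tet2ΔRBD pair 3. The Tet2 count was 15 without Tet2 pair 1. The Tet2ΔRBD count was 14 without Tet2 pair 2, 3 without its own pair 1 or 3 and 16 without its pair 4. The causes were not tested.

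Without the replicate block, 0, 4 and 0 members passed in Tet1, Tet2 and Tet2ΔRBD. With the replicate block across lines, 5, 30 and 21 passed (9.80%, 58.8% and 41.2%, beside 5.83%, 41.0% and 28.2% of all genes). Both line differences and the input comparison had 0 members in each setting run, with the replicate block too.

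The Tet2 median over all 53 members was 0.37 to 0.70 with a pair left out, the lowest without pair 2. The Tet2ΔRBD median was 0.27 with each pair centred and 0.39 to 0.61 with a pair left out, the highest without pair 4. The Tet1 median was 0.22 and 0.35 with either pair alone. Unpaired means put 45 members above input in Tet2 and 47 in Tet2ΔRBD, and centring put 17 in Tet2ΔRBD. In every pair these were 29 (54.7%, beside 47.0% of expressed genes) and 26 (49.1%, beside 31.0%). The median expressed gene was itself above input, at 0.24 in Tet2 and 0.20 in Tet2ΔRBD. Shares of expressed genes by unpaired means or after centring are not given here, so those counts only describe the members.

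No fitted ratio of a called member changed sign in any of 20 settings. Of the 24 called members of Tet2, 11 passed in each fit that left out 1 pair, as did 1 of 9 in Tet2ΔRBD (Gnl3l) and 0 of 7 in Tet1. Depth limits Mphosph10, Gnl2 and Ddx10, whose lowest libraries held 16, 36 and 99 expected counts.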
